A study of Mus musculus with 9 samples.

Results

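The nuclear genes for mitochondrial ribosomal proteins were followed in the left ventricle of neonatal mice under pressure load. They were taken as every row whose symbol begins with Mrpl or Mrps and a digit, which gave 75 of the 16698 genes with a single row. Of these, 46 are named Mrpl, for the large subunit, and 29 are named Mrps, for the small subunit. All 75 were among the 13712 genes that passed the filter on low values, which asked for a log2 value over 0 in at least 3 libraries. The mice were of the outbred ICR/CD1 strain, and hearts were taken at postnatal day 14. Transverse aortic constriction (TAC), a ligature on the aortic arch that makes the left ventricle eject against raised pressure, had been done at postnatal day 1 in 3 samples (day-1 TAC) and at postnatal day 7 in 3 samples (day-7 TAC). The other 3 samples came from sham-operated mice, for which no day of surgery is given in the sources used here. The labels call the first TAC stage regenerative and the second non-regenerative, and the study compared gene expression between them. Day of surgery and time under load differ together between the TAC groups and cannot be told apart.

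The mitochondrial ribosome is the protein synthesis machine inside mitochondria. It translates the few messenger RNAs of mitochondrial DNA, which encode core subunits of the respiratory chain and of ATP synthase, and these supply the ATP that the beating heart muscle consumes. Its ribosomal RNAs are transcribed from mitochondrial DNA, but all of its proteins are encoded in the nucleus, made in the cytosol and imported. Some descend from bacterial ribosomal proteins, and others are found only in mitochondria.

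The libraries held between 18535202 and 26521005 recovered reads, and each of the 75 genes had at least 85 reads in every library. All 10 cardiomyocyte markers were in the table, and their summed level out of the log was 99008 to 126840 in day-1 TAC, 115780 to 124800 in day-7 TAC and 132390 to 139880 in sham. Day-1 TAC replicate 3 stood apart in sex-linked genes: it held 10532 reads of Xist and 18 of the Y-linked Ddx3y, and no other library had over 40 of the first or under 3312 of the second. Nothing in the labels ties samples to separate animals, so p-values rest on the spread between samples only.

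Levels among the members were compared per kilobase of exon, on the scale of the deposited values taken out of the log. In sham hearts the median member stood at 15.1, and the median over the 13467 genes tested with an annotated length at 4.89. Libraries were averaged out of the log for the members and on the log2 scale for all genes, so these medians rest on unlike averages. Mrps21, the relative of bacterial S21, was highest at 89.6 ± 4.8 (SD, n = 3). Mrpl12, the protein of the flexible stalk that recruits translation factors, followed at 84.2 ± 9.2, Mrpl18 at 78.6 ± 2.3 and Mrps23 at 69.2 ± 2.8. The first 2 of these overlapped within their SD, and Mrpl12 and Mrpl18 did too. Mrpl23, a protein at the mouth of the peptide exit tunnel, was lowest at 1.27 ± 0.043, followed by Mrps10 at 2.52 ± 0.26 and Mrpl17 at 3.23 ± 0.032. Exon length was the union over all annotated transcripts, so genes with long alternative exons come out low, and processed pseudogenes of Mrpl23, Mrpl48 and Mrps36 in the annotation could share their reads. Without the length, Mrpl42 had the highest mean log2 value over all libraries and Mrpl23 the lowest.

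**Figure D1:**
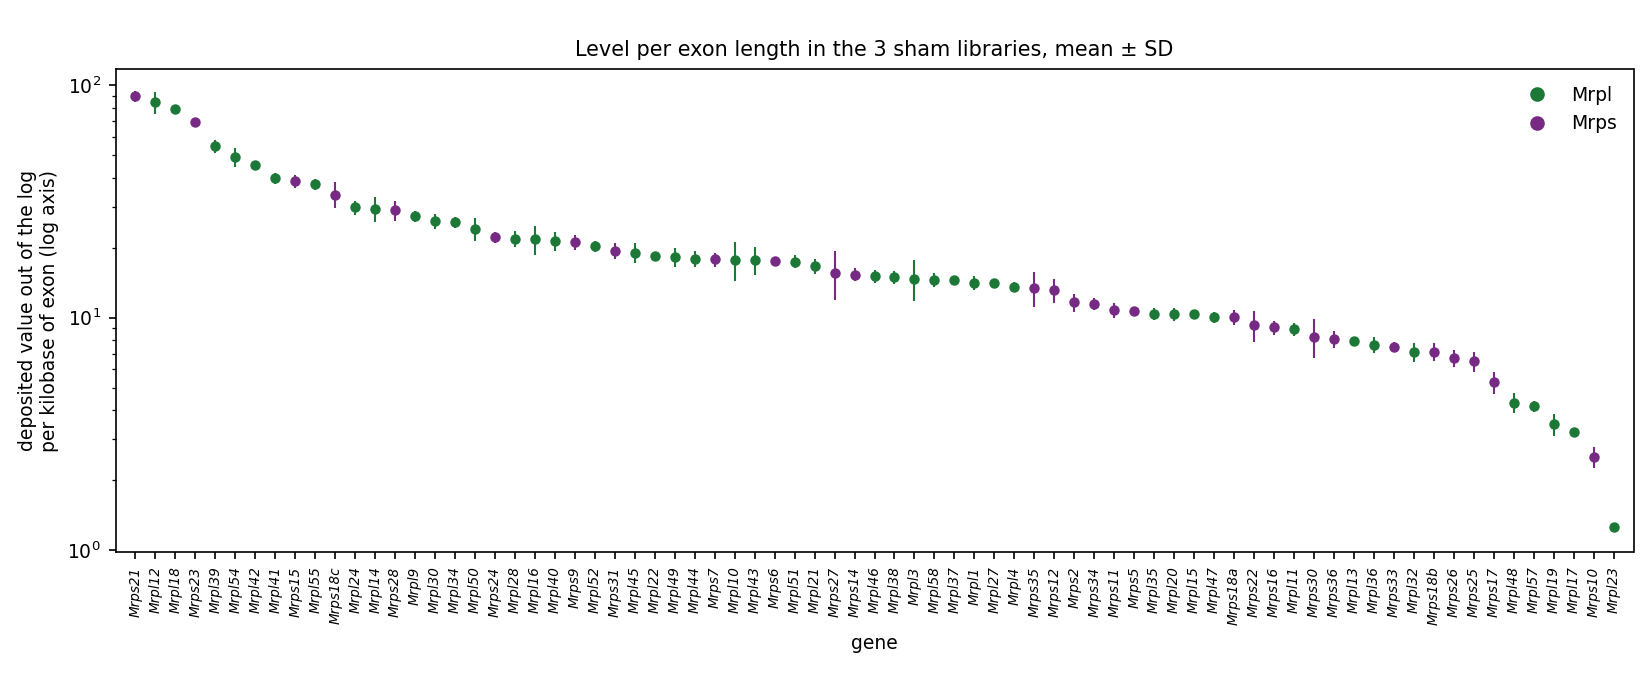
Level per kilobase of exon (log axis) of each of the 75 genes in the 3 sham libraries, as mean ± SD, in order of the level, with Mrpl genes in green and Mrps genes in purple. Mrps21 leads at 89.6 and Mrpl23 closes at 1.27.

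Promoters of the family are shown for members that moved, because the family is known for sites of the nuclear factors NRF1, GABP and YY1. Letters of the nuclear factors ZNF143 and THAP11 are also marked, which were added after the sequences had been seen. Windows from 250 bases before to 50 bases after the RefSeq start site (GRCm38.p6) were found for 66 of the 75 members. The 120 bases below are upstream of the first exon and written 5′ to 3′ on the gene's strand, and capitals mark the matches described after them. Mrpl34, Mrpl52, Mrps22 and Mrpl20 were the largest called rises of day-1 TAC over sham with a match in this stretch, Mrps2 the largest without any, and Mrpl42 the largest called fall of day-7 TAC, all among members whose stretch holds no annotated exon. The calls of Mrps22 and Mrpl20 were lost when some single libraries were left out, which are named further on.
Mrpl34 (chr8:71464806-71464925, plus strand): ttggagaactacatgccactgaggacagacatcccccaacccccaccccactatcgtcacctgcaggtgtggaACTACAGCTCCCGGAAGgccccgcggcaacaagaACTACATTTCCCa
Mrpl52 (chr14:54426789-54426908, plus strand): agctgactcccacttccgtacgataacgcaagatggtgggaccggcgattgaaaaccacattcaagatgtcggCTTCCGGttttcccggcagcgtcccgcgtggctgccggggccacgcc
Mrps22 (chr9:98601680-98601799, minus strand): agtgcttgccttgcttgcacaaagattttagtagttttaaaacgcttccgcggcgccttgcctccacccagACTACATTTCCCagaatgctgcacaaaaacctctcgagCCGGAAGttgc
Mrpl20 (chr4:155802758-155802877, plus strand): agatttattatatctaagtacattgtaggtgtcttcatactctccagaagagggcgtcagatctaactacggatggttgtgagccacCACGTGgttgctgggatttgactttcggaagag
Mrps2 (chr2:28467946-28468065, plus strand): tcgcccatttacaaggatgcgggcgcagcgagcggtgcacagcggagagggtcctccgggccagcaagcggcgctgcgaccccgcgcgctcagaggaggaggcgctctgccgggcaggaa
Mrpl42 (chr10:95501950-95502069, minus strand): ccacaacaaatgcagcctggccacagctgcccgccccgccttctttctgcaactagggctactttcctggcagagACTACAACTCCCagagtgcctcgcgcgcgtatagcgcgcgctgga
Exact letters were searched on both strands of the 300-base windows. The ETS letters CCGGAAG, bound by GABP, were in 36.4% of the 66 member windows, in 19.0% of the windows of 10368 genes tested and in 9.93% of all 27025 promoters. The YY1 letters AAGATGGCG were in 12.1% of member windows, in 3.38% of genes tested and in 1.64% of all promoters. The NRF1 letters GCATGCGC were in 10.6%, 5.82% and 3.05% of the same sets. At least one of these motifs was in 51.5% of member windows, in 25.9% of genes tested and in 13.6% of all promoters. The ZNF143 and THAP11 letters, which are ACTACA, any pair of bases and TCCC, were searched after the sequences had been seen and were in 7.58% of member windows, in 4.53% of genes tested and in 2.08% of all promoters. In Mrpl34 one such match overlaps the ETS match. The E-box CACGTG was in 6.06% of member windows, in 11.5% of genes tested and in 8.09% of all promoters. The estrogen-related receptor letters TCAAGGTCA were in no member window, in 0.338% of genes tested and in 0.466% of all promoters. Members called higher in day-1 TAC than in sham held an NRF1, ETS or YY1 match in 51.9% of 27 windows, and the other members in 51.3% of 39. A match is a string of letters and does not show a bound site.

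Day-1 TAC hearts were compared with sham hearts to see how ventricles loaded from the first day of life differed at day 14. Of the 75 members, 33 were higher in day-1 TAC and 1 was lower (limma, Benjamini-Hochberg adjusted p under 0.05 over all genes tested, here termed called). The members called higher were 44.0% of the family. Of all genes tested 34.8% were called, 14.3% higher and 20.5% lower. The median member differed by 0.20 on the log2 scale, and the median over all genes by -0.04. In 64 of 75 members the day-1 TAC mean was above the sham mean. The difference was broad and small in size: the largest member fold change was 1.66. Among Mrpl genes 22 rose and none fell, and among Mrps genes 11 rose and 1 fell. The groups did not overlap in 43 members that were higher and in 3 that were lower, against 20.3% and 27.7% of all genes tested. The members' mean log2 value was 5.45, 5.44 and 5.42 in the day-1 TAC libraries, against 5.27, 5.14 and 5.25 in sham. Together they took 0.411 ± 0.0069% of the reads in day-1 TAC and 0.337 ± 0.016% in sham (SD, n = 3 each). In these tissue samples, a change in the share of a cell type and a change in RNA per cell cannot be told apart.

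**Figure D2:**
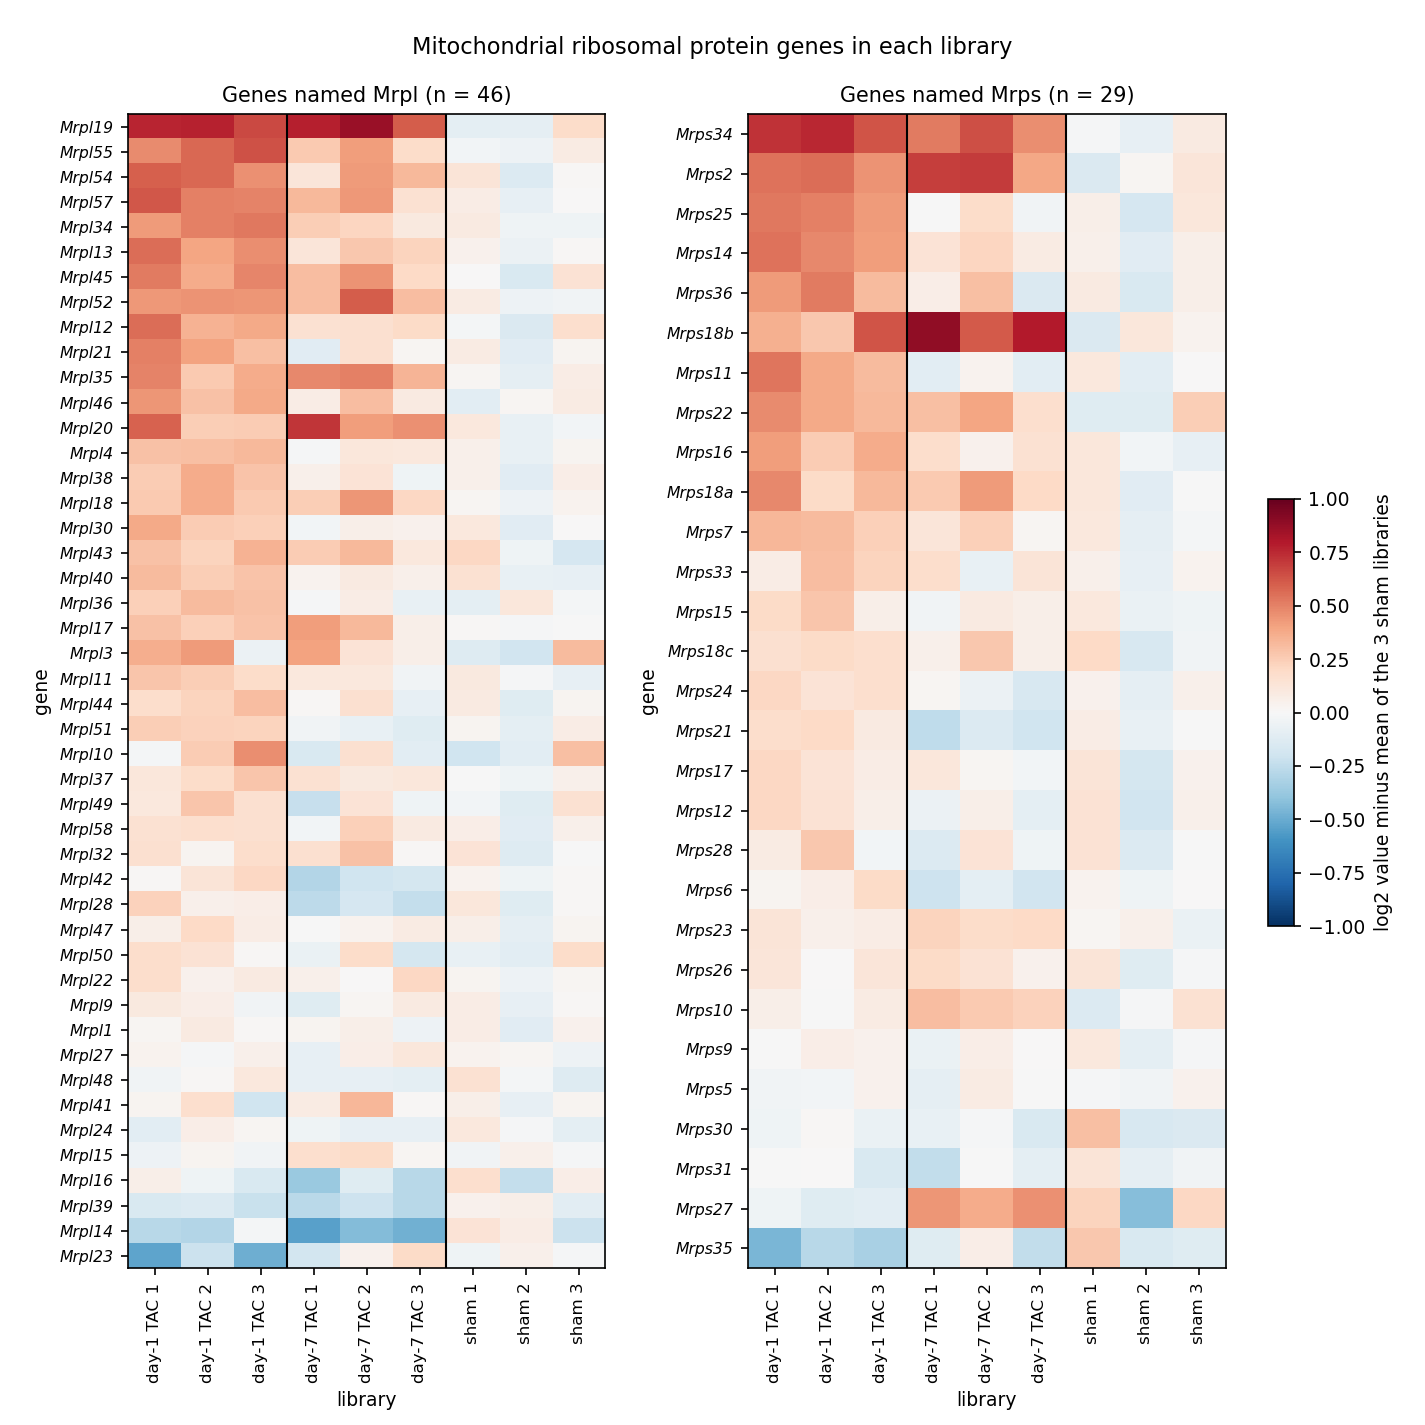
Deposited log2 value of each member in each library minus the mean of the 3 sham libraries, with day-1 TAC, day-7 TAC and sham from left to right and genes in order of the day-1 TAC difference. Red is above the sham mean and blue below, and the day-1 TAC columns are above it for 64 of 75 genes by group mean.

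Mrpl19, the relative of a bacterial protein at the interface of the subunits, had the largest rise (chromosome 6, 81957851 to 81965958, minus strand, GRCm38). Its log2 values were 5.0, 5.01 and 4.9 in day-1 TAC, against 4.14, 4.15 and 4.42 in sham. Every day-1 TAC library was above every sham library, and the difference was 0.73 ± 0.10 (SE; limma, adjusted p = 0.000705). Mrps34, a small-subunit protein found only in mitochondria and needed for the stability of that subunit, lies on chromosome 17 (24895116 to 24897502, plus strand). It stood at 5.29, 5.32 and 5.19 in day-1 TAC, against 4.56, 4.49 and 4.66 in sham. These groups were further apart than any spread within them, with a difference of 0.70 ± 0.082 (SE; limma, adjusted p = 0.000315). Mrpl55, a large-subunit protein without a bacterial relative (chromosome 11, 59202486 to 59206134, plus strand), reached 5.74, 5.84 and 5.90 in day-1 TAC, against 5.23, 5.21 and 5.35 in sham. Its difference was 0.56 ± 0.083 (SE; limma, adjusted p = 0.000907).

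Mrpl54 and Mrpl57 also belong to the large subunit and to mitochondria alone, and each was 0.54 higher in day-1 TAC than in sham. Mrps2, the relative of bacterial S2, stood at 5.62, 5.64 and 5.53 in day-1 TAC, against 4.94, 5.10 and 5.20 in sham, a difference of 0.52 ± 0.10 (SE; limma, adjusted p = 0.00369). Mrpl34 and Mrps25 were each higher by 0.49. Mrps25, a small-subunit protein, had 5.93, 5.92 and 5.84 in day-1 TAC, against 5.47, 5.24 and 5.52 in sham, with no overlap. Mrps14, a small-subunit protein in which human variants have been linked to cardiomyopathy (chromosome 1, 160195215 to 160202170, plus strand), had 6.18, 6.12 and 6.06 in day-1 TAC, against 5.69, 5.53 and 5.70 in sham. Mrpl13 (chromosome 15, 55534094 to 55557748, minus strand) had 6.54, 6.37 and 6.44 in day-1 TAC, against 6.02, 5.92 and 5.99 in sham. Both genes were higher in every day-1 TAC library, by 0.48 ± 0.074 for Mrps14 and by 0.47 ± 0.071 for Mrpl13 (SE; limma, adjusted p = 0.00115 and 0.00102). In contrast Mrps35 fell: it had 6.39, 6.56 and 6.52 in day-1 TAC, against 7.12, 6.69 and 6.73 in sham, a difference of -0.35 ± 0.12 (SE; limma, adjusted p = 0.042). That call was lost without day-1 TAC replicate 1, 2 or 3, day-7 TAC replicate 1 or sham replicate 1 (adjusted p up to 0.121), and under every rescaling of the libraries.

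**Figure D3:**
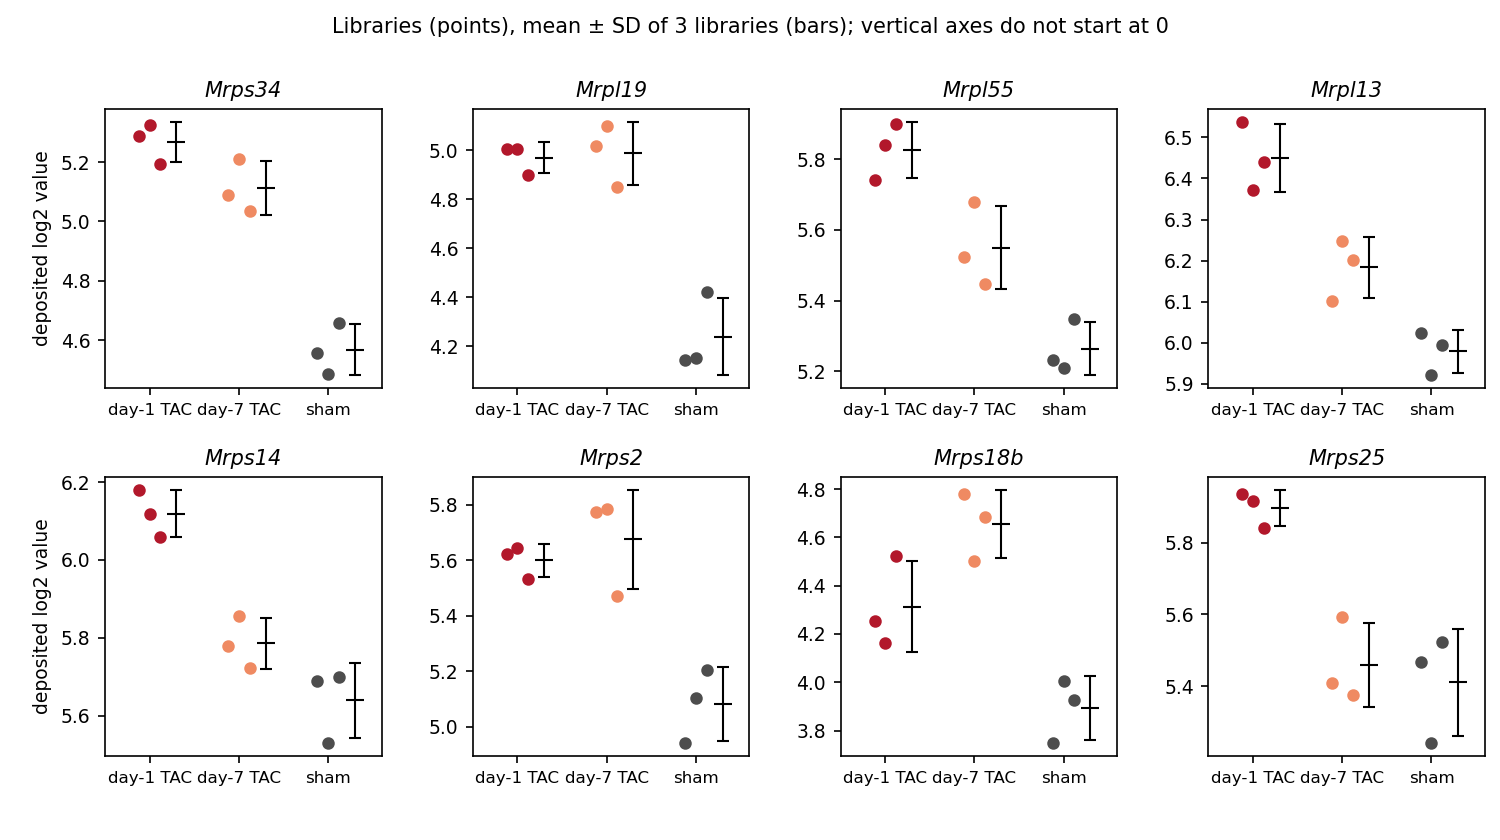
Deposited log2 values of the 8 members with the smallest F-test p among the 3 groups, with each library as a point and the mean ± SD of 3 libraries as a bar, day-1 TAC, day-7 TAC and sham from left to right. Every TAC library lies above every sham library in Mrps34, Mrpl19, Mrpl55, Mrpl13, Mrps14, Mrps2 and Mrps18b, and in Mrps25 the day-7 TAC libraries overlap sham. Mrpl13 and Mrps14 were not called in day-7 TAC against sham (limma, adjusted p = 0.0541 and 0.164).

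By place in the ribosome, all 3 members measured at the stalk base had a mean above that of sham in day-1 TAC, and 2 passed the test. Mrpl12 rose by 0.43 ± 0.087 (SE; limma, adjusted p = 0.00454) and Mrpl11 by 0.24, while Mrpl10, which anchors the Mrpl12 copies, overlapped between the groups and differed by 0.23 ± 0.16 without passing (limma, adjusted p = 0.278). Of 5 members around the exit tunnel, Mrpl45, which holds the ribosome to the inner membrane, rose by 0.46 ± 0.094 (SE; limma, adjusted p = 0.00444). The other 4 were not called: Mrpl44 differed by 0.24, Mrpl22 by 0.10, Mrpl24 by -0.01 and Mrpl23 by -0.41 (limma, adjusted p = 0.0679, 0.397, 0.96 and 0.0507). Of 7 members in the central protuberance and the rescue of stalled ribosomes, Mrpl46, Mrpl38, Mrpl18 and Mrpl40 rose, by 0.37, 0.30, 0.30 and 0.28. Mrpl58, a hydrolase that frees peptides from stalled ribosomes, differed by 0.16, Mrpl27 by 0.03 and Mrpl48 by 0.03, none called. In the small subunit's decoding and messenger path, Mrps2 and Mrps7 rose, by 0.52 and 0.30, and Mrps21, Mrps12 and Mrps5 were not called, at 0.15, 0.14 and -0.01.

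Symbols do not always give a protein's place. Mrps18a and Mrps30 encode proteins that sit in the large subunit, and Mrps36 encodes a protein now assigned to the alpha-ketoglutarate dehydrogenase complex of the citric acid cycle. Mrps36 was 0.42 ± 0.13 and Mrps18a 0.33 ± 0.098 higher in day-1 TAC than in sham (SE; limma, adjusted p = 0.0307 and 0.025), and Mrps30 differed by -0.03 (limma, adjusted p = 0.85). Of the 4 members in which human variants are linked to heart disease, Mrps14 and Mrps22 rose, the second by 0.39 ± 0.11 (SE; limma, adjusted p = 0.0187), and Mrpl3 and Mrpl44 were not called, with differences of 0.24 each. Mrpl3 varied within groups, with 6.96, 7.02 and 6.54 in day-1 TAC, against 6.47, 6.40 and 6.91 in sham.

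Without any 1 library, 20 of the 34 day-1 TAC calls were kept in each of the 9 fits. Of the day-1 TAC rises given above, those of Mrps22, Mrps36, Mrps18a, Mrps7, Mrpl38, Mrpl40, Mrpl20 and Mrpl11 were each lost without sham replicate 2. Day-1 TAC replicate 1 was needed for these except Mrpl38, day-1 TAC replicate 2 for Mrps36, Mrps7, Mrpl38 and Mrpl11, and day-1 TAC replicate 3 for Mrps18a and Mrpl11. Sham replicate 1 was needed for Mrps22, sham replicate 3 for Mrps18a, Mrpl40, Mrpl20 and Mrpl11, day-7 TAC replicate 1 or 2 for Mrpl11 and day-7 TAC replicate 3 for Mrpl20. Without such a library the adjusted p went up to 0.0738 for Mrps22, 0.113 for Mrps36, 0.0958 for Mrps18a, 0.0789 for Mrps7, 0.0663 for Mrpl38, 0.0744 for Mrpl40, 0.127 for Mrpl20 and 0.12 for Mrpl11. Mrpl20 and Mrpl11 also lost the call without the intensity trend and in a fit of these 2 groups alone. Fibroblast markers had 3 of 8 called higher and 1 lower in day-1 TAC than in sham. Their summed level was 4411 to 5582 in day-1 TAC, against 3191 to 4380 in sham. Macrophage markers had 2 of 7 called higher, at 120 to 164 in day-1 TAC, against 96.1 to 133 in sham. Neutrophil markers had 5 of 6 called higher, at 5.81 to 29.0 in day-1 TAC, against 1.61 to 3.49 in sham. Of 10 cardiomyocyte markers 1 was called higher and 2 lower, and of 8 endothelial markers 4 were lower. Of 6 smooth muscle and pericyte markers 2 were higher and 1 lower. The part of these cell types in the family's difference was not tested.

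Day-7 TAC hearts were compared with sham hearts to see how a load placed on the older neonatal ventricle differed. Of the 75 members 15 rose and 3 fell (limma, adjusted p under 0.05). Higher calls were 20% of the members, against 13.8% of all genes tested, and lower calls 4%, against 15.1%, which made 28.9% of all genes called. The median member differed by 0.07 and the median gene by -0.01, and 52 members had the higher mean in day-7 TAC. The groups did not overlap in 20 members that were higher and in 6 that were lower, against 22.4% and 24.3% of all genes tested. Of the Mrpl genes 9 rose and 3 fell, and of the Mrps genes 6 rose and none fell. The members' mean log2 value was 5.30, 5.39 and 5.28 in day-7 TAC libraries, against 5.27, 5.14 and 5.25 in sham, so the lowest day-7 TAC library stood only just above the highest sham library. They took 0.370 ± 0.011% of the reads in day-7 TAC and 0.337 ± 0.016% in sham (SD, n = 3 each).

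Mrps18b, one of 3 mitochondrial relatives of bacterial S18, led this comparison (chromosome 17, 35910379 to 35916389, minus strand). It stood at 4.78, 4.50 and 4.68 in day-7 TAC, against 3.75, 4.01 and 3.93 in sham, without overlap. The difference was 0.76 ± 0.12 (SE; limma, adjusted p = 0.00161). In day-1 TAC Mrps18b had 4.25, 4.16 and 4.52, which was 0.42 ± 0.12 above sham (SE; limma, adjusted p = 0.0221), a call lost without day-1 TAC replicate 3 or sham replicate 1 (adjusted p up to 0.0765). Mrpl19 had 5.02, 5.10 and 4.85 in day-7 TAC, against the sham values given above, a difference of 0.75 ± 0.10 (SE; limma, adjusted p = 0.000726). Mrps2 had 5.77, 5.78 and 5.47 and was 0.59 ± 0.10 higher than sham (SE; limma, adjusted p = 0.00235). Mrps34 had 5.09, 5.21 and 5.04 and was 0.54 ± 0.082 higher (SE; limma, adjusted p = 0.00124). These 3 genes stood clear of sham in both TAC groups, and the comparisons share the sham libraries.

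Mrpl20, a relative of a bacterial protein of early large-subunit assembly, had 4.82, 4.53 and 4.56 in day-7 TAC, against 4.21, 4.04 and 4.08 in sham, and rose by 0.53 ± 0.12 (SE; limma, adjusted p = 0.00905). Mrpl35 rose by 0.44, with 5.92, 5.94 and 5.78 in day-7 TAC, against 5.46, 5.35 and 5.51 in sham. Mrpl52 rose by 0.41 and Mrpl45 by 0.32. Mrpl14 fell: it is the large-subunit protein to which, in human, the assembly factor Malsu1 binds (chromosome 17, 45686322 to 45698495, plus strand). It had 4.25, 4.36 and 4.31 in day-7 TAC, against 4.93, 4.87 and 4.58 in sham, a difference of -0.49 ± 0.11 (SE; limma, adjusted p = 0.00989). Mrpl39, a mitochondria-specific protein akin to threonyl-tRNA synthetase, had 6.84, 6.90 and 6.83 in day-7 TAC, against 7.15, 7.17 and 7.01 in sham, a difference of -0.25. Mrpl42 had 7.09, 7.18 and 7.21 in day-7 TAC, against 7.41, 7.34 and 7.39 in sham, a difference of -0.22.

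Of the role groups, Mrpl45 at the exit tunnel, Mrpl18 in the central protuberance, Mrps18a and Mrps2 were called in day-7 TAC, all higher. No stalk-base member was called, with differences of 0.17 for Mrpl12, 0.06 for Mrpl11 and -0.03 for Mrpl10. Of the members tied to human heart disease none was called: Mrps22 differed by 0.29, Mrpl3 by 0.20, Mrps14 by 0.15 and Mrpl44 by 0.03. The count of members called depended on single libraries: it was 10 without day-7 TAC replicate 1, 9 without day-7 TAC replicate 2 and 10 without sham replicate 2, in place of 18. All genes called in the same fits were 2960, 2594 and 2732, in place of 3962. The members' median difference was 0.04 without day-7 TAC replicate 2 or without sham replicate 2, in place of 0.07, and the members with the higher mean in day-7 TAC were then 46 and 43, in place of 52. Mrpl45 lost its call without day-7 TAC replicate 1 or 2 or sham replicate 1 or 2 (adjusted p up to 0.111), Mrpl39 without day-7 TAC replicate 1 or 3 or sham replicate 2 (up to 0.0683), Mrpl18 without replicate 2 of either group (up to 0.0596), Mrps18a without day-1 TAC replicate 3, any day-7 TAC library or sham replicate 2 or 3 (up to 0.158), and Mrpl42 without any day-7 TAC or sham library (up to 0.117). The fall of Mrpl42 was also not called with quantile, upper-quartile or total-read scaling, with voom weights or without the intensity trend. Neutrophil markers differed in day-7 TAC, where 6 of 6 were called higher, with a summed level of 28.5 to 66.4 in day-7 TAC, against 1.61 to 3.49 in sham. Macrophage markers had 2 of 7 called lower, at 78.6 to 91.9 in day-7 TAC, against 96.1 to 133 in sham. Smooth muscle and pericyte markers had 2 of 6 called higher, at 1621 to 1757 in day-7 TAC, against 1495 to 1561 in sham. Of 10 cardiomyocyte markers 1 was called higher and 2 lower, of 8 endothelial markers 1 was higher and 2 lower, and of 8 fibroblast markers none was called. The part of these cells in the members' differences was not tested.

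**Figure D4:**
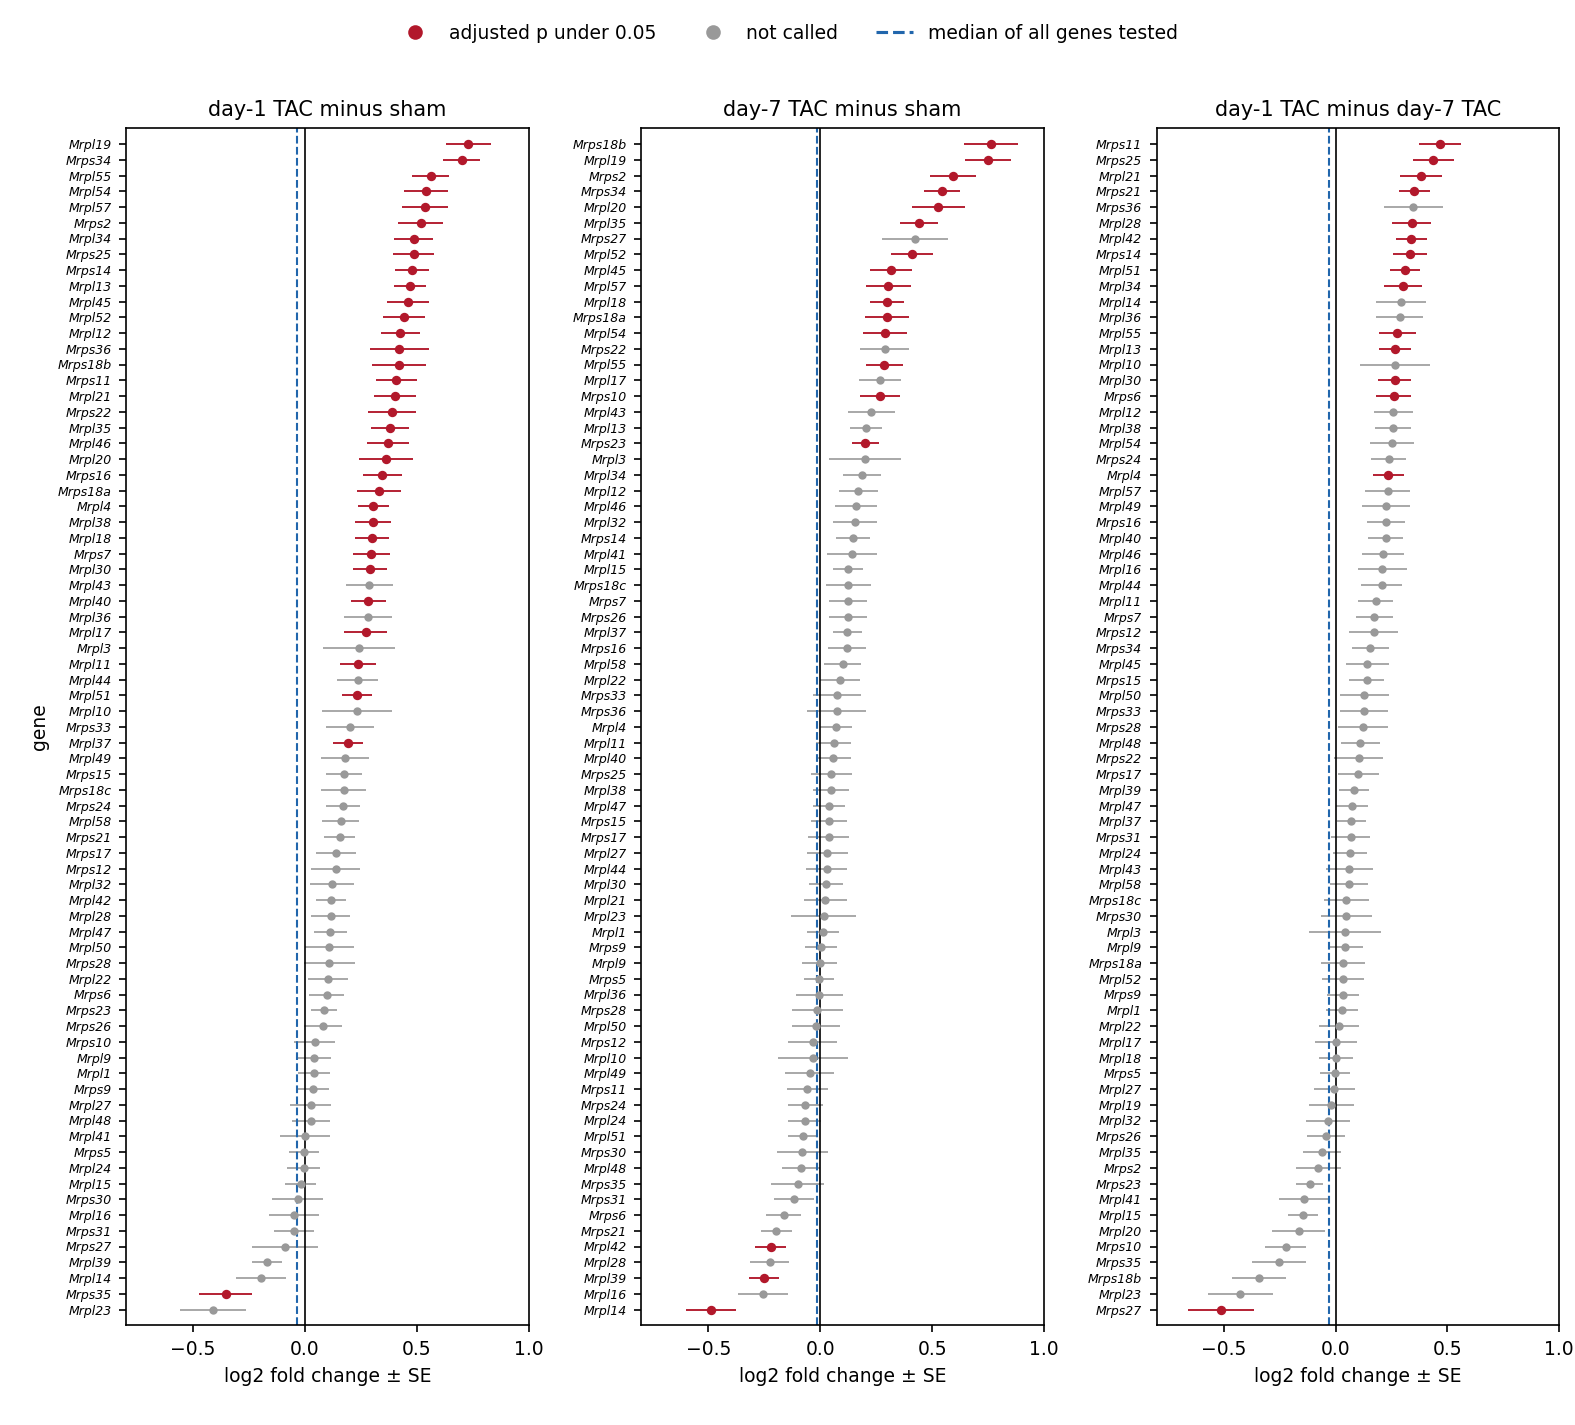
Log2 fold change ± SE of each of the 75 genes in the 3 comparisons, ordered within each panel, with called genes in red and the median of all genes tested as a dashed blue line. Most points lie to the right of 0 in day-1 TAC minus sham, where 33 genes were called higher and 1 lower, and fewer are called in the other panels.

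Day-1 TAC was then set directly against day-7 TAC, which tests the difference between the TAC groups and does not use the sham means. Of the 75 members 14 were higher in day-1 TAC and 1 was lower (limma, adjusted p under 0.05). Higher calls were 18.7% of the members, against 6.42% of all genes tested, and lower calls 1.33%, against 10.3%, which made 16.7% of all genes called. The median member was 0.12 higher in day-1 TAC, the median gene differed by -0.03, and 59 members had the higher mean in day-1 TAC. The groups did not overlap in 29 members that were higher and in 5 that were lower, against 15.6% and 23.3% of all genes tested. In mean log2 value over all members, each day-1 TAC library (5.45, 5.44 and 5.42) was above each day-7 TAC library (5.30, 5.39 and 5.28).

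Mrps11, a small-subunit protein on the path of the messenger RNA (chromosome 7, 78783119 to 78792989, plus strand), differed most upward. It had 5.08, 4.92 and 4.86 in day-1 TAC, against 4.44, 4.58 and 4.44 in day-7 TAC, a difference of 0.47 ± 0.093 (SE; limma, adjusted p = 0.00918). The sham libraries stood with day-7 TAC here, at 4.65, 4.44 and 4.55. Mrps25 followed the same pattern of levels, with 5.41, 5.59 and 5.38 in day-7 TAC, and was 0.44 ± 0.092 higher in day-1 TAC (SE; limma, adjusted p = 0.0115). Mrpl21, with 5.57, 5.47 and 5.37 in day-1 TAC, against 4.95, 5.23 and 5.08 in day-7 TAC, was 0.38 higher. Mrps14, with 5.78, 5.85 and 5.72 in day-7 TAC, was 0.33 ± 0.074 higher in day-1 TAC (SE; limma, adjusted p = 0.0149). Mrpl55, Mrpl13 and Mrpl34 were graded, with day-1 TAC highest, day-7 TAC between and sham lowest in group means.

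In other members of this comparison day-7 TAC had the lowest mean of the 3 groups. Mrps21 (chromosome 3, 95862634 to 95871519, minus strand) had 6.22, 6.25 and 6.14 in day-1 TAC, against 5.80, 5.91 and 5.85 in day-7 TAC, and sham stood at 6.12, 5.97 and 6.05. Its difference between the TAC groups was 0.35 ± 0.069 (SE; limma, adjusted p = 0.009). Mrpl42 had 7.40, 7.51 and 7.58 in day-1 TAC, against 7.09, 7.18 and 7.21 in day-7 TAC, and Mrpl28 had 5.14, 4.96 and 4.98, against 4.65, 4.74 and 4.67. Both differed by 0.34, and Mrpl51 by 0.31. Against sham, the day-7 TAC differences of Mrps21, Mrpl28 and Mrpl51 were -0.20, -0.23 and -0.08, none called (limma, adjusted p = 0.0563, 0.0777 and 0.409). Mrps27, an RNA-binding protein of the pentatricopeptide repeat family in the small subunit, went the other way (chromosome 13, 99344786 to 99415562, plus strand). It had 4.96, 4.88 and 4.90 in day-1 TAC, against 5.44, 5.37 and 5.46 in day-7 TAC, a difference of -0.51 ± 0.15 (SE; limma, adjusted p = 0.0405). In sham it was uneven, at 5.22, 4.57 and 5.21, and the call was lost without any single TAC library (adjusted p up to 0.109) and under every rescaling.

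For some of the largest TAC rises no difference between the TAC groups was detectable. The difference of day-1 TAC from day-7 TAC was -0.02 ± 0.10 for Mrpl19, -0.08 ± 0.10 for Mrps2, 0.03 ± 0.094 for Mrpl52 and 0.00 ± 0.076 for Mrpl18 (SE; limma, adjusted p = 0.921, 0.641, 0.841 and 0.993). Mrps18b differed by -0.34 ± 0.12 without passing the test (SE; limma, adjusted p = 0.0775). Of the role groups, Mrps14, with its link to human heart disease, and Mrps21 were called in this comparison. Single libraries moved the count of members called: it was 7, 8 and 9 without day-1 TAC replicate 1, 2 and 3, and 6, 8 and 5 without day-7 TAC replicate 1, 2 and 3, in place of 15. All genes called in the same fits were 1684, 1671 and 1633, and 1290, 1261 and 1300, in place of 2287. Mrps14 lost its call without day-7 TAC replicate 3 (adjusted p = 0.0578), Mrpl21 without day-1 TAC replicate 1 or 2 or day-7 TAC replicate 1 or 3 (up to 0.0819), and Mrpl28 without day-1 TAC replicate 1 or any day-7 TAC library (up to 0.0809). Macrophage markers had 5 of 7 called higher in day-1 TAC, with a summed level of 120 to 164, against 78.6 to 91.9 in day-7 TAC. Neutrophil markers had 2 of 6 called lower, at 5.81 to 29.0 in day-1 TAC, against 28.5 to 66.4 in day-7 TAC. Of 6 smooth muscle and pericyte markers 1 was higher and 1 lower, with a summed level of 1313 to 1513 in day-1 TAC, against 1621 to 1757 in day-7 TAC, and of 8 fibroblast markers 1 was higher. The part of these cells was not tested.

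Across all 3 groups the F test called 38 of the 75 members, or 50.7%, against 44.4% of all genes tested. The family's share lay near that of the table, and its calls lay mostly on the side of higher TAC values. The median SD within a group was 0.10 on the log2 scale in members and 0.15 over all genes. The genes were not matched to the members in level. Several members had nearly equal means in the 3 groups. Mrps5 had 6.09, 6.10 and 6.17 in day-1 TAC, 6.04, 6.21 and 6.12 in day-7 TAC and 6.12, 6.09 and 6.17 in sham, and Mrpl27, Mrps9, Mrpl1 and Mrpl9 had an F-test adjusted p of 0.86 to 0.94 (limma).

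The genome around the members bears on how their reads were counted. In the GENCODE annotation 31 members share exon bases with another gene model, mostly on the other strand, and whether the authors counted by strand is not given in the sources used here. Of these 31, 12 rose and none fell in day-1 TAC against sham, and of the 44 without such sharing 21 rose and 1 fell. Mrpl19 shares 1962 bases with Gcfc2, which differed from sham by 0.17 in day-1 TAC and by 0.21 in day-7 TAC, neither called (limma, adjusted p = 0.336 and 0.26). Mrps34 shares 1309 bases with Mapk8ip3, which differed by 0.21 in day-1 TAC without a call, and 763 bases on its own strand with Nme3. No gene of the symbol Nme3 was among those tested, so its part in the reads of Mrps34 is not known. Mrps25 shares 4590 bases with Nr2c2, a nuclear receptor gene that fell by 0.45 in day-1 TAC (limma, adjusted p = 0.00951), opposite to Mrps25. Mrps11 and Mrpl46 overlap each other by 173 bases. Reads from bases shared on the same strand cannot be told apart. Those from bases shared across strands can be only where counting was by strand.

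Many members are also neighbours of another gene at the start site. Of the 75, 17 have a protein-coding partner that is transcribed away from them with its start within 1000 bases, or 22.7%, against 9.14% of 14415 protein-coding genes in the table. Of these partners 16 were tested, and in day-1 TAC against sham 1 rose and 2 fell. Apba3, the partner of Mrpl54, rose by 0.23, and Pnpla7, the partner of Mrpl41, and Zfp189, the partner of Mrpl50, fell by 0.93 and 0.63. Neither Mrpl41 nor Mrpl50 was called in day-1 TAC. The partner of Mrps34, Eme2, differed by 0.36 in day-1 TAC without a call and rose by 0.68 in day-7 TAC (limma, adjusted p = 0.0661 and 0.0054).

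The rest of the mitochondrial translation pathway was described from lists chosen by function. For scale, 14.3% of all genes tested were called higher and 20.5% lower in day-1 TAC than in sham. In day-7 TAC against sham 13.8% were called higher and 15.1% lower, and between the TAC groups 6.42% and 10.3%. Of 5 mitoribosome proteins with other symbols, Chchd1 rose in day-1 TAC by 0.34 and Ptcd3 in day-7 TAC by 0.29, with no other call. The first call was lost without day-1 TAC replicate 1 or sham replicate 2, and the second without day-7 TAC replicate 1 or 2 or sham replicate 1 or 2. Their median was 0.16 in day-1 TAC and 0.10 in day-7 TAC, relative to sham. Of 26 genes for assembly and rRNA modification, 2 rose and 2 fell in day-1 TAC, and 2 rose and 5 fell in day-7 TAC, with medians of -0.03 and -0.02. The day-1 TAC split depended on the scaling, with 6 higher and 1 lower under total reads and 4 higher and 1 lower under the upper quartile, and was 1 and 1 without day-1 TAC replicate 2, sham replicate 1 or sham replicate 2. Rbfa, which matures the small-subunit rRNA, fell most: it had 4.73, 4.91 and 4.97 in day-1 TAC, 5.19, 5.21 and 5.20 in day-7 TAC and 5.98, 5.88 and 5.56 in sham. Both TAC groups lay below sham, with differences of -0.94 ± 0.11 in day-1 TAC and -0.61 ± 0.11 in day-7 TAC (SE; limma, adjusted p = 0.000309 and 0.00291). Malsu1 fell by 0.33 in day-1 TAC, while the rRNA methyltransferase Mrm3 rose by 0.57 in day-1 TAC and 0.41 in day-7 TAC. Trub2, a pseudouridine synthase relative, rose by 0.54 in day-7 TAC, and Mettl15 and Mterf4 fell by 0.57 and 0.47.

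Of 15 translation factors 3 rose and 1 fell in day-1 TAC, and 1 rose and 1 fell in day-7 TAC. Higher calls in day-1 TAC were 1 in place of 3 without day-1 TAC replicate 1, sham replicate 1 or sham replicate 2, and the fall in day-7 TAC was not called without day-7 TAC replicate 1, sham replicate 1 or sham replicate 2, or with total reads. Tsfm, the exchange factor of the elongation factor Tufm, had 4.99, 5.01 and 4.98 in day-1 TAC, 4.85, 5.08 and 4.82 in day-7 TAC and 4.45, 4.51 and 4.58 in sham. It stood above sham in every TAC library, by 0.48 in day-1 TAC and 0.40 in day-7 TAC. Tufm itself rose by 0.32 and Taco1, an activator of cytochrome oxidase translation, by 0.40 in day-1 TAC, while Oxa1l, the insertase that receives the new chains, fell by 0.35. Of 22 genes for aminoacyl-tRNA synthesis 3 rose and 3 fell in day-1 TAC, 7 rose and 1 fell in day-7 TAC, and 4 were lower and none higher in day-1 TAC than in day-7 TAC. In day-7 TAC 4 rose and 1 fell without day-7 TAC replicate 2. Between the TAC groups 1 was lower with the upper quartile, total reads, no intensity trend or the replicate block and without day-1 TAC replicate 3 or day-7 TAC replicate 2 or 3. It was 2 lower with quantile normalization or without day-7 TAC replicate 1, and 1 higher and 1 lower without day-1 TAC replicate 1. Yars2 and Gars rose by 0.53 and 0.36 in day-1 TAC, Qrsl1 and Rars2 by 0.63 and 0.41 in day-7 TAC, and Iars2 fell by 0.52 in day-1 TAC and 0.30 in day-7 TAC. Gars and Kars also serve the cytosol.

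**Figure D5:**
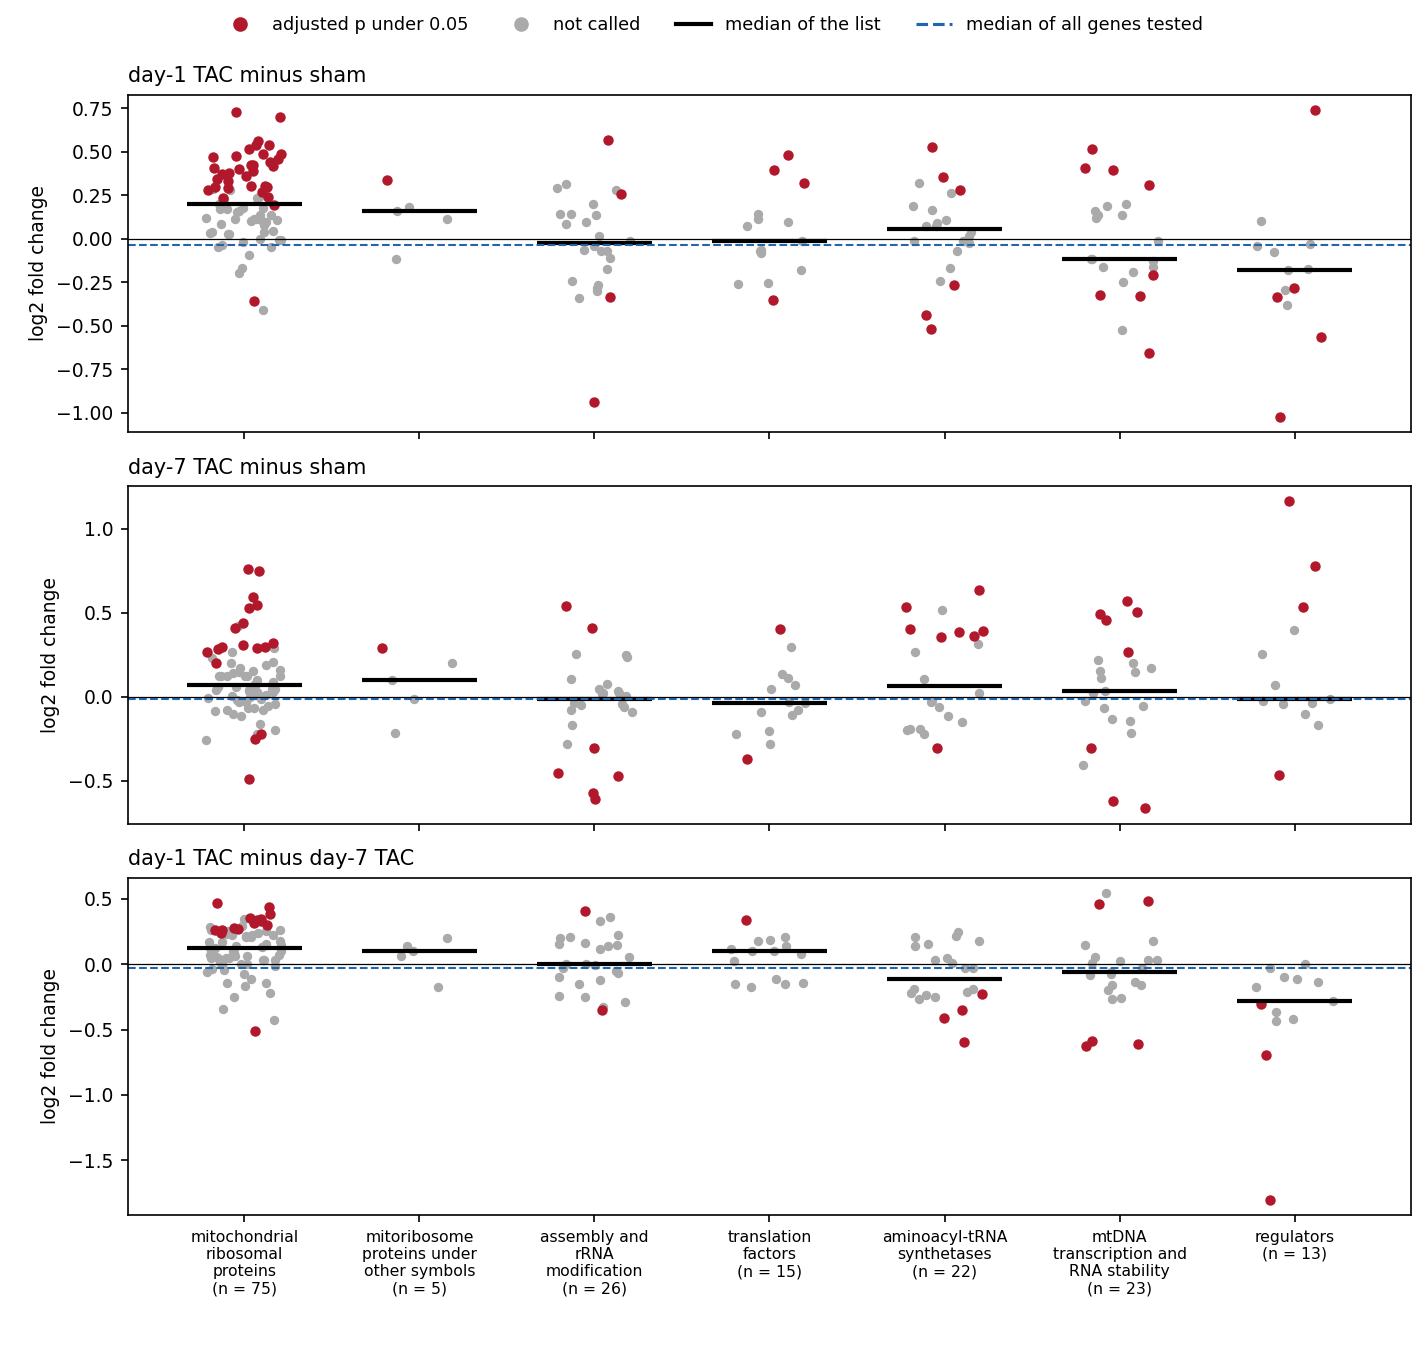
Log2 fold change of each gene of the family and of the other lists of the mitochondrial translation pathway in the 3 comparisons, with called genes in red, the list median as a black line and the median of all genes tested as a dashed blue line. The ribosomal proteins have a median of 0.20 in day-1 TAC minus sham, and the lists for assembly, translation factors and aminoacyl-tRNA synthesis lie between -0.03 and 0.05.

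Of 23 genes for the copying, transcription and RNA stability of mitochondrial DNA, 4 rose and 4 fell in day-1 TAC, and 5 rose and 3 fell in day-7 TAC. Such counts lay near the share of all genes tested that was called, 34.8% in day-1 TAC and 28.9% in day-7 TAC. The even split in day-1 TAC depended on the scaling, with 9 higher and 1 lower under total reads, 8 and 1 under the upper quartile, 7 and 2 under quantile normalization and 6 and 1 under a recomputed trimmed mean. It was 2 and 1 without day-1 TAC replicate 1, 3 and 1 without sham replicate 1 and 3 and 2 without sham replicate 2. In day-7 TAC it was 7 higher and 1 lower under total reads and 4 and 1 without day-7 TAC replicate 2. Tbrg4, an RNA-binding protein of the FASTK family, rose by 0.41 in day-1 TAC and 0.57 in day-7 TAC, and Slirp, the partner of the RNA stabiliser Lrpprc, rose by 0.52 in day-1 TAC. Polg2, the accessory subunit of the mitochondrial DNA polymerase, fell by 0.66 in day-1 TAC, and Mterf2 fell by 0.62 in day-7 TAC. In day-1 TAC against day-7 TAC, 2 of these genes were higher and 3 lower, 1 assembly gene was higher and 1 lower, and 1 translation factor was higher. No assembly gene or translation factor was called there without day-1 TAC replicate 2 or day-7 TAC replicate 2. Genes encoded in mitochondrial DNA were looked for by their mt- symbols and none was found among the deposited rows, so their transcripts could not be followed.

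Regulators of nuclear genes for mitochondria were called in both directions. Of 13, 1 rose and 4 fell in day-1 TAC, 3 rose and 1 fell in day-7 TAC, and 3 were lower in day-1 TAC than in day-7 TAC. Against sham 34.8% of all genes tested were called in day-1 TAC and 28.9% in day-7 TAC, and 16.7% between the TAC groups. The regulators' counts lay near these shares. Under total reads 1 rose and 2 fell in day-1 TAC. Between the TAC groups 1 was lower with quantile normalization, no intensity trend or the replicate block and without day-1 TAC replicate 1 or 3 or day-7 TAC replicate 1 or 2. Ppargc1a, the coactivator PGC-1alpha that drives mitochondrial biogenesis, had 7.14, 7.49 and 7.68 in day-1 TAC, 9.20, 9.38 and 9.13 in day-7 TAC and 8.67, 8.46 and 8.24 in sham. The 3 groups did not overlap: it fell by 1.02 in day-1 TAC and rose by 0.78 in day-7 TAC relative to sham, and day-1 TAC differed from day-7 TAC by -1.80 ± 0.14 (SE; limma, adjusted p = 0.000583). Its relative Pprc1 rose in both, by 0.74 in day-1 TAC and 1.16 in day-7 TAC. Gabpa, the DNA-binding subunit of GABP, had 6.68, 6.66 and 6.61 in day-1 TAC, 6.80, 6.76 and 6.70 in day-7 TAC and 7.21, 7.26 and 7.17 in sham, and fell by 0.57 in day-1 TAC and 0.46 in day-7 TAC (limma, adjusted p = 0.00021 and 0.000584). Nrf1 and Yy1 fell by 0.34 and 0.28 in day-1 TAC. Day-1 TAC hearts had the family's highest mean level and the lowest level of Ppargc1a, and a relation between them was not tested.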

How the data were processed

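Messenger RNA of the left ventricle was measured in 9 libraries, made with ScriptSeq v2 and read single-end, per the labels' protocols. The submitters' processing notes name Trim Galore, STAR, edgeR and the build mm10; no version, annotation or strand setting is named there. Per the file header, the authors deposited TMM-scaled log2 values. Once the log was undone, 100% of values lay within 0.001 reads of a whole multiple of the library's step, and these multiples are the recovered reads.

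Rows of 3 repeated symbols, 12 in all, were left out, and 13712 genes were tested. The deposited log2 values were fitted, not the recovered reads. A limma model (version 3.58.1, R 4.3.3) with an intensity trend and no replicate block took in all 9 libraries. Tests were two-sided, with Benjamini-Hochberg adjustment over all genes tested. In the header 2 sham columns share a name, and sham numbers 2 and 3 follow column order. Within-group pairs differed by 9.81 to 29.0 in chi-square per gene, so no library was a copy of another in its group. Pairs from unlike groups were not compared in this way. The filter, scaling and limma fit of day-1 TAC against sham were tested on simulated reads with planted changes. Their spread was set in advance and not taken from these libraries. Coordinates are from GENCODE mouse release 21 and promoters from RefSeq.

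Members and lists were chosen with earlier results of these data known. Named were, in each comparison, up to 8 called rises and 8 called falls, the 8 members with the smallest F-test p, the most and least abundant, all members of the role lists, and up to 4 genes per functional list. Some further genes were named after their values were seen: the least changed members, overlapping and neighbouring genes, and further genes of the functional lists. Alternatives were other filters, scalings, weights, a minimum fold change and leaving out each library.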

Additional observations from a re-analysis of the deposited data

Results flagged for a closer look

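The TAC groups differed in 15 members, by the direct limma test of day-1 TAC against day-7 TAC (adjusted p under 0.05). Day of surgery and time under load differ together between these groups and cannot be told apart. Higher in day-1 TAC, on the log2 scale, were Mrps11 by 0.4665, Mrps25 by 0.4377, Mrpl21 by 0.3812, Mrps21 by 0.3507 and Mrpl28 by 0.3411. Mrpl42 was higher by 0.3379, Mrps14 by 0.3328, Mrpl51 by 0.3107, Mrpl34 by 0.3006 and Mrpl55 by 0.2758. Mrpl13 was higher by 0.2672, Mrpl30 by 0.2638, Mrps6 by 0.2603 and Mrpl4 by 0.236. Mrps27 differed by -0.5131 and was the only member lower in day-1 TAC. Of these 15 calls, 5 were kept in every fit that left out 1 library. Mrpl13, Mrpl30, Mrpl34, Mrpl4, Mrpl55 and Mrps6 lost theirs in 5 to 8 of the 9 such fits.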

How the results depend on the processing

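No call of a member changed sign under any alternative run. A required fold change of 1.2 left 3 members called for each TAC group against sham and 0 between both TAC groups, where 31 members and 4558 of all 13712 genes had an unadjusted p under 0.05. With that fold 4% of the members were called against sham, all higher, and of all genes 4.43% were higher in day-1 TAC and 3.78% in day-7 TAC, so the members' share lay near that of the table. In these fits 10.4%, 7.77% and 1.99% of all genes were called in day-1 TAC against sham, day-7 TAC against sham and between both TAC groups. Members called were 23 to 32 with 1 library left out in day-1 TAC against sham, 9 to 18 for day-7 TAC and 5 to 16 between both TAC groups, and all genes called 3259 to 4525, 2594 to 4404 and 1261 to 2491; calls kept in all 9 such fits were 20 of 34, 8 of 18 and 5 of 15. Without the trend 9 were called between the TAC groups. With the replicate block, a paired fit on sample numbers, 7 were called there. In deviations from the group mean, TAC samples of the same number correlated at -0.22, -0.11 and -0.04. Those of unlike numbers correlated at -0.17 to 0.23, so these values cannot decide whether the numbers pair samples. No block could be fitted against sham, since 2 sham columns carry no number of their own.

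Scaling moved the medians. The members' median in day-1 TAC against sham was 0.2696 with quantile normalization, 0.2898 with the upper quartile and 0.301 with total reads, in place of 0.20. In day-7 TAC against sham it was 0.1286 with total reads, and between the TAC groups 0.1865 with the upper quartile. Total reads also moved the median of all genes in day-1 TAC against sham to 0.07, in place of -0.04, and the members' median minus that median was 0.24 under both. Of all genes called in day-1 TAC against sham, 41.1% were higher as deposited, 58.2% with the upper quartile and 60.1% with total reads. In day-7 TAC against sham the share was 47.7% as deposited and 59.7% with total reads, and between the TAC groups 38.5% as deposited and 56.9% with the upper quartile.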
